A study of Homo sapiens with 8 samples.

Results

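The messenger RNAs of 10 immediate-early genes were followed in U-2OS cells after siRNA knockdown of the CGG repeat-binding protein CGGBP1. The genes were EGR1, FOS, FOSL1, JUN, JUNB, ATF3, MYC, IER2, IER3 and DUSP1. They were found by gene symbol among the 18388 genes measured, and all 10 passed the filter of 100 reads or more in 3 or more of the 6 compared libraries, as did 10138 genes in total. EGR1 was also among the candidate genes that the study picked from these same libraries, so its direction here is not independent evidence. U-2OS is a human osteosarcoma line, and the cells used carry the Tet-ON transactivator in every group. Cells received 50 nM control siRNA (siControl) or a pooled siRNA against CGGBP1 (siCGGBP1) for 72 h, and the titles of all 8 libraries also carry DMSO. For the last 60 min they were labelled with 75 µM 4-thiouridine (4sU), a uridine analogue that is built into RNA made in that time. According to the labels the medium was exchanged for this, whereas the study's methods describe 4sU as added to the medium. Each group had 3 libraries, and single siControl libraries with 0 and 200 µM 4sU stood beside them without replicates. The study describes the 3 libraries of a group as biological replicates. The p-values of the fits rest on the spread between libraries, which the fits share between genes in part or almost wholly.

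In SLAM-Seq, iodoacetamide modifies 4sU so that newly made RNA carries T-to-C conversions in the reads. From these the GRAND-SLAM model estimates, for each gene and library, the new-to-total ratio, which is the share of its reads that come from RNA made during the labelling. Each gene has 4 quantities, namely total reads, newly synthesized RNA (total reads multiplied by the ratio), reads with at least 2 conversions, and the ratio itself. Total reads were brought to a common scale by TMM normalization and are called normalized reads. The libraries read the 3′ ends of polyadenylated RNA, and fewer cells and less RNA per cell cannot be told apart in them.

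Immediate-early genes answer growth factors, serum and stress within minutes, through factors that are already present and need no new protein. Signals through the ERK kinases and RhoA act on serum response factor (SRF) and its partners at CArG boxes and on CREB at cyclic AMP response elements. Their mRNAs are made in bursts and decay quickly, often through AU-rich elements in the 3′ end, so that most molecules present at any moment are young. The proteins include the zinc finger factor EGR1, the AP-1 subunits of the FOS and JUN families, the stress factor ATF3, the growth regulator MYC, and DUSP1, a phosphatase that switches MAP kinases off.

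Promoter sequences are shown for EGR1 and JUN, the members with non-overlapping higher reads after siCGGBP1, and for JUNB and DUSP1, which were over 2-fold above the control range in both single siControl libraries. Each is the stretch of 250 bases before the RefSeq start site, from GRCh38.p14, 5′ to 3′ on the strand of the gene. Capitals mark CGGCGG, the CArG box, the cyclic AMP response element TGACGTCA and the AP-1 site TGACTCA, each on either strand.
EGR1 (chr5:138465229-138465478, plus strand): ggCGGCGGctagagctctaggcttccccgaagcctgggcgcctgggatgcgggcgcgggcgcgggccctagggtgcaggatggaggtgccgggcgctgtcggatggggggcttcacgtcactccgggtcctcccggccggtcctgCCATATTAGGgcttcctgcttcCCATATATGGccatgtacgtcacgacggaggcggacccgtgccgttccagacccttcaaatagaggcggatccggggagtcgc
JUN (chr1:58784048-58784297, minus strand): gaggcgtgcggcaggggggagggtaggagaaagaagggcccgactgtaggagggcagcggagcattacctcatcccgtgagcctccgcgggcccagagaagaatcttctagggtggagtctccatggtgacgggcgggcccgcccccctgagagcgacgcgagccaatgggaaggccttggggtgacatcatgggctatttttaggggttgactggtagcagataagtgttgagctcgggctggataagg
JUNB (chr19:12791236-12791485, plus strand): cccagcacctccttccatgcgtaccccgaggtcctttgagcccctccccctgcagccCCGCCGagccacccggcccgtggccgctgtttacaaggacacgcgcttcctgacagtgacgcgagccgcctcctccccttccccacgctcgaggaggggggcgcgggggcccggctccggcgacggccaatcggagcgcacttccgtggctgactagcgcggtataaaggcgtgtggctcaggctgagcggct
DUSP1 (chr5:172771196-172771445, minus strand): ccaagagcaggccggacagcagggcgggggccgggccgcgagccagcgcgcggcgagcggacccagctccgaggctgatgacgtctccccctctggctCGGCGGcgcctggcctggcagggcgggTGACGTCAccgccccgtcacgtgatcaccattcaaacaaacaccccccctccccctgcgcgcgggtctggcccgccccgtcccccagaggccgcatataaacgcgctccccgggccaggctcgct

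The EGR1 stretch held 2 CArG boxes, which start 105 and 83 bases before the start site, and 1 CGGCGG match at its far edge. Read on by 1 base in the genome, that match belonged to a run of 3 CGG units (chromosome 5, 138465228 to 138465236). JUNB held 1 CGGCGG match, on the opposite strand, and DUSP1 held 1 CGGCGG match and 1 cyclic AMP response element that starts 125 bases before its start. No motif searched was found in the JUN stretch. RefSeq windows were matched for 7 of the 10 members, ATF3 with 2 start sites, and those of FOS, IER2 and ATF3 held none of the motifs. Among all 35116 RefSeq promoter windows of this length, 24.5% held CGGCGG, 4.37% CGGCGGCGG, 1.16% a CArG box, 1.65% TGACGTCA and 4.2% TGACTCA. A match is a run of letters and was not measured as a binding site here. For EGR1 the study shows CGGBP1 binding by ChIP-seq in another human cell line. Whether that binding covers the CGG run found here was not examined.

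The genes themselves span between 1350 and 8525 bases, except for ATF3 with 55444 (GRCh38 coordinates, GENCODE 44). EGR1 (ENSG00000120738) lies at chromosome 5, 138465479 to 138469303, on the plus strand. JUN (ENSG00000177606) lies at chromosome 1, 58776845 to 58784048, on the minus strand, and FOSL1 (ENSG00000175592) at chromosome 11, 65892049 to 65900573, also on the minus strand. The 3′ UTR of the canonical transcript held at least 1 ATTTA pentamer, the core of an AU-rich element, in 9 of the 10 members, against 74.6% of the 9889 tested genes with an annotated 3′ UTR. Per kilobase, IER3 held 8.14, FOS 6.2, DUSP1 6.01 and JUNB 4, while EGR1 held 0.818 and IER2 held none. The median of the members was 2.73 per kilobase beside 1.76 over the tested genes, and 7 members were above the latter.

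The 6 libraries held between 10127519 and 14221516 reads, and the 0 and 200 µM libraries 19011714 and 11341561. CGGBP1, the siRNA target, had 1250.2, 1086 and 895 normalized reads in siControl and 212, 117 and 361 in siCGGBP1. It fell by 2.22 on the log2 scale (standard error 0.39, edgeR adjusted p = 0.0137) and its libraries did not overlap. The adjusted p was 0.0632 with siControl replicate 1 left out and 0.0851 with siCGGBP1 replicate 1 left out. Conversions ranged from 0.183 to 0.263 per 100 covered T in the 6 libraries, against 0.0638 without 4sU and 0.218 in the library labelled 200 µM. The ratio was exactly 0 in 22.5% to 31.9% of the tested genes in replicates 1 and 2 of both groups, but in 57.2% and 59.2% in the replicates 3 and in 55.1% at 200 µM. Of 8 mesenchymal markers 7 were measured and all 7 exceeded 100 normalized reads, their sum ranging from 44223 to 54260 in siControl and from 64000 to 86340 in siCGGBP1. Epithelial markers summed to between 5311 and 7105 in siControl and between 2992 and 5293 in siCGGBP1, with CDH1 at 0 in every library and 2 of 5, KRT8 and KRT18, over 100. Neuronal markers summed to at most 801, and blood markers to at most 7.93. The part of these marker differences in the results was not tested.

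EGR1 had the lowest edgeR p of the members in each of the 3 read classes. By edgeR it passed the threshold in newly synthesized RNA and in reads with at least 2 conversions. In these 2 classes the edgeR p does not measure the spread of the single gene between its libraries. The exact permutation p was 0.1 in all 3 classes for EGR1 and for JUN alike, and in total RNA also for FOSL1 and IER3. In total RNA EGR1 lay just outside the threshold. DESeq2 called EGR1 in none of these 3 classes. The study, which ran the Wald test of DESeq2 on newly synthesized RNA, counted EGR1 among its upregulated genes. What set the 2 results apart was not tested. JUN was also higher in every siCGGBP1 library, while FOSL1 and IER3 were lower in every one in total RNA. The other 6 members had overlapping groups. Calls required an absolute log2 fold change above 1 and an adjusted p under 0.05 in the quasi-likelihood test of edgeR over all tested genes. In total RNA 0 of the 10 members were called by edgeR or by DESeq2, and 4 members (EGR1, JUN, FOSL1, IER3) had an unadjusted edgeR p under 0.05, as did 1661 of the 10138 tested genes. Over all tested genes 0.444% were called higher and 0.957% lower. The libraries did not overlap for 2 members that were higher and 2 that were lower, shares to be read against 12% and 12.3% of the tested genes. The median log2 fold change of the members was 0.10, beside -0.0031 for all tested genes.

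In newly synthesized RNA 1 member, EGR1, was called higher and none lower, where 0.0296% of the tested genes were called higher and 0.0197% lower. Libraries did not overlap for 2 members (EGR1 and JUN), both higher, and for none that was lower, beside 2.89% and 4.45% of the tested genes. Reads with at least 2 conversions could be tested for 9 members, all but ATF3, among 3136 genes with at least 10 such reads in at least 3 libraries. Again EGR1 alone was called, where 0.0319% of these genes were called higher and 0.0638% lower. EGR1 and JUN were the members with non-overlapping higher libraries, and no member was lower in that way, beside 4.72% and 5.07% of the genes. For the ratio, limma called 0 members and 0% of the tested genes. No member had an unadjusted p under 0.05 for the ratio, and 224 of the tested genes did. Ratios did not overlap between the groups for 1 member, IER3, which was higher, where 2.84% of the tested genes were higher and 4.18% lower in that way. Over the members that were tested, medians of the log2 fold change were 0.27 in newly synthesized RNA and 0.44 in reads with at least 2 conversions, beside -0.035 and 0.060 over the genes tested.

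**Figure D1:**
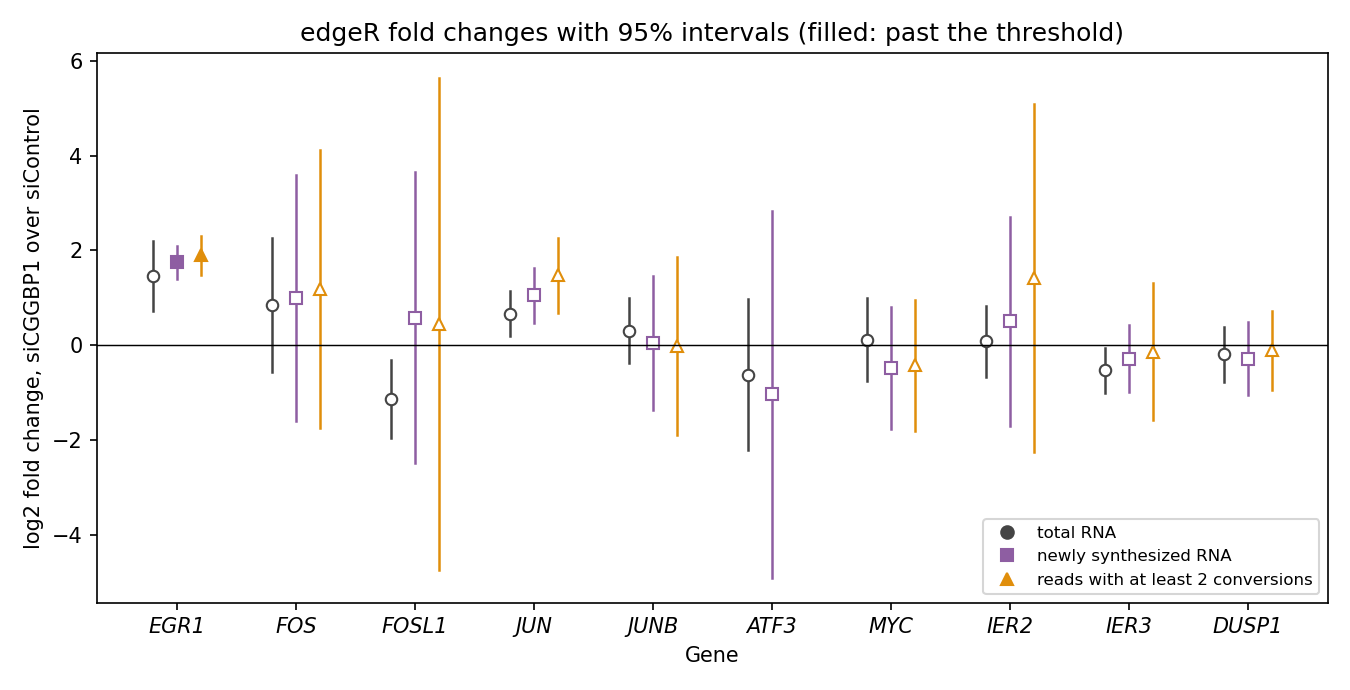
The log2 fold change of siCGGBP1 over siControl (vertical axis) is drawn for each member (horizontal axis) in 3 edgeR fits, with bars for the 95% interval and 3 libraries per group. Filled symbols passed the threshold, which were those of EGR1 in newly synthesized RNA (1.74) and in reads with at least 2 conversions (1.90). ATF3 has no symbol in the latter fit, and the bars of FOS, FOSL1, ATF3 and IER2 for labelled RNA span several log2 units.

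EGR1 encodes a zinc finger transcription factor that is induced by growth factors through SRF. Its normalized reads were 1607, 1769.6 and 3734 in siControl and 4324, 5628 and 9613 in siCGGBP1, given here and throughout in the order of the replicate numbers 1 to 3. All siCGGBP1 libraries lay above all siControl libraries, but siControl replicate 3 was closer to the lowest siCGGBP1 library than to the other siControl libraries. Within siCGGBP1, replicate 3 held the most EGR1 reads and also the most CGGBP1 reads, 361 beside 212 and 117. Within siControl, replicate 3 held the most EGR1 reads and the fewest CGGBP1 reads, 895. Whether EGR1 followed the depth of the knockdown was not tested. The group means were 2370.1 ± 1184 and 6521 ± 2756 (SD, n = 3 each), and the log2 fold change was 1.46 (standard error 0.34, edgeR adjusted p = 0.0526), just outside the threshold. An exact two-sided permutation test gave p = 0.1, the smallest that 3 against 3 allows. With siControl replicate 3 left out, the log2 fold change was 1.95 and the edgeR adjusted p 0.0327, and without the replicates 3 of both groups they were 1.57 and 8.99e-04. The single siControl libraries with 0 and 200 µM 4sU held 4082 and 4145 reads, above all 3 siControl libraries and just under the lowest siCGGBP1 library. With those 2 added to the controls, the log2 fold change was 1.09 (adjusted p = 0.0901).

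The labelled share of EGR1 was already high in control cells. The ratio of EGR1 was 59.6%, 73.4% and 56% in siControl and 66.5%, 70.3% and 80.4% in siCGGBP1, and the groups overlapped. In these libraries the 5% and 95% posterior limits lay at most 6 percentage points apart, from 56.6% to 62.6% in siControl replicate 1 and from 79.4% to 81.4% in siCGGBP1 replicate 3. The mean ratio was 63 ± 9.17% in siControl and 72.4 ± 7.16% in siCGGBP1, a difference of 9.41 percentage points that did not pass the test (limma adjusted p = 0.84).

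Newly synthesized EGR1 RNA amounted to 958, 1298 and 2090.2 normalized reads in siControl and 2877, 3957 and 7727 in siCGGBP1. All siCGGBP1 libraries were above all siControl libraries, and the means were 1449 ± 581 and 4854 ± 2546. The single siControl library with 200 µM 4sU held 3229, above siCGGBP1 replicate 1. The log2 fold change was 1.74 (standard error 0.18, edgeR adjusted p = 7.34e-19). In this fit the spread was taken almost wholly from all genes, so this p does not measure the spread of EGR1 between its libraries. The log2 values of EGR1 itself had an SD of 0.567 in siControl and 0.728 in siCGGBP1. DESeq2 gave 1.74 with a standard error of 1.09 and an adjusted p of 0.999, and limma on log2 values with 1 added gave an adjusted p of 0.808, so neither called it. An exact permutation test again gave p = 0.1. Without the replicates 3 of both groups edgeR gave 1.61 (adjusted p = 0.0061).

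Reads with at least 2 conversions, a count that does not pass through the ratio model, numbered 346, 414 and 770.3 for EGR1 in siControl and 914, 1664 and 3116 in siCGGBP1. The groups did not overlap, and the library without 4sU held 0 such EGR1 reads. The log2 fold change was 1.90 (standard error 0.21, edgeR adjusted p = 7.25e-16), and DESeq2 gave an adjusted p of 0.477. Here too edgeR took the spread almost wholly from all genes. Without siCGGBP1 replicate 3, the highest library, edgeR gave 1.35 with an adjusted p of 0.18, and the call was lost. Without the replicates 3 of both groups it was lost as well (1.77, adjusted p = 0.935).

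EGR1 RNA that was not labelled, and so was made before the 60 min pulse, came to 649, 471 and 1644 normalized reads in siControl and 1447, 1671 and 1886 in siCGGBP1. Here the groups overlapped, because siControl replicate 3 was above siCGGBP1 replicate 1. The means were 921 ± 632 and 1668 ± 219, and no test was planned for this class.

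**Figure D2:**
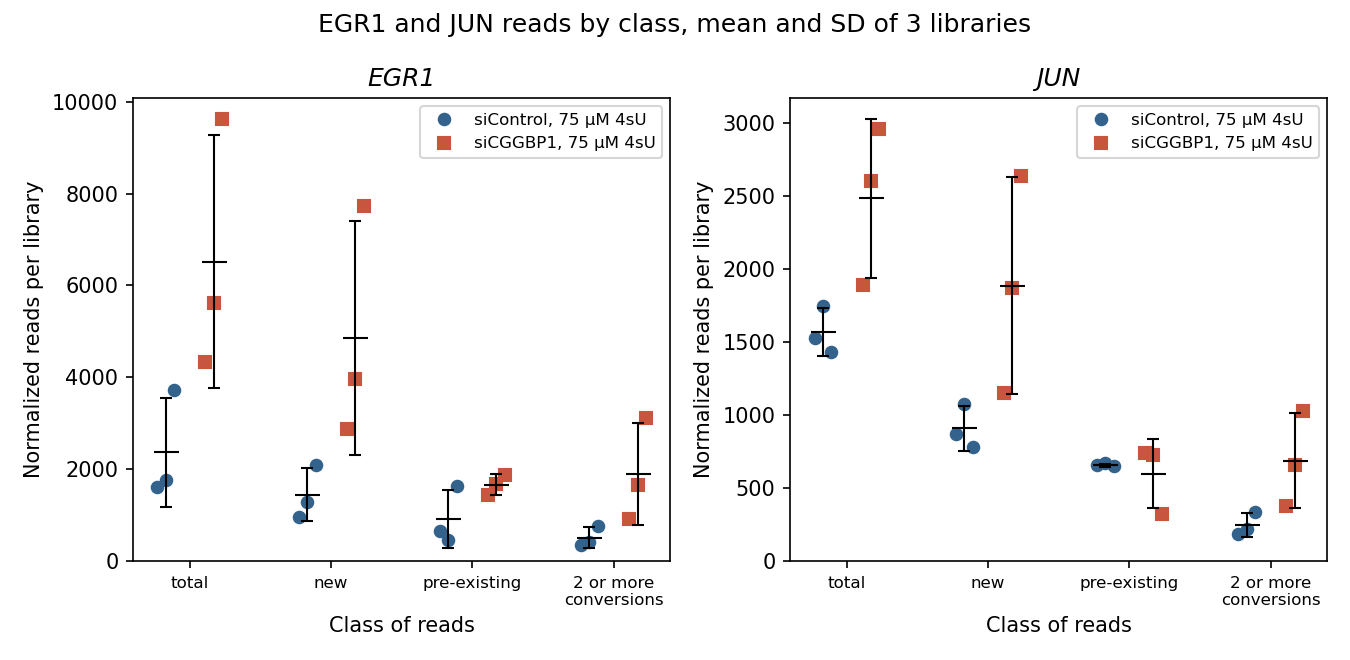
Normalized reads per library (vertical axes) are shown for EGR1 (left) and JUN (right) by class of reads (horizontal axes), where each point is a library and black bars are the mean ± SD of 3. For both genes the siCGGBP1 libraries lie above the siControl libraries in total, new and at least 2-conversion reads and overlap with them in pre-existing reads. EGR1 is highest in siCGGBP1 replicate 3 in every class.

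The AP-1 subunits were measured by JUN, JUNB, FOS and FOSL1, which pair through leucine zippers to bind the AP-1 site. JUN is the founding subunit and is activated by the kinases of the JNK family. JUN had 1526, 1748 and 1429.7 normalized reads in siControl and 1891, 2600.2 and 2962 in siCGGBP1. The groups did not overlap, and the log2 fold change was 0.66 (standard error 0.22, edgeR adjusted p = 0.151), which did not pass the test. The single siControl libraries with 0 and 200 µM 4sU held 2011 and 2865 JUN reads, both inside the siCGGBP1 range, and with them among the controls the log2 fold change was 0.38 (adjusted p = 0.496). Newly synthesized JUN RNA was 869, 1078 and 781 in siControl and 1152, 1872 and 2636 in siCGGBP1, also without overlap. The single siControl library with 200 µM 4sU held 2302, above siCGGBP1 replicates 1 and 2. The log2 fold change of newly synthesized JUN RNA was 1.05 (standard error 0.30, edgeR adjusted p = 0.45), while a fit on its conversion counts gave 1.29 and passed (edgeR adjusted p = 0.0122). In reads with at least 2 conversions JUN had 184, 219 and 338 in siControl and 381, 656 and 1027 in siCGGBP1, with a log2 fold change of 1.48 (standard error 0.40, edgeR adjusted p = 0.132). The siControl library with 200 µM 4sU held 401 such JUN reads, above siCGGBP1 replicate 1. In this class JUN passed without siControl replicate 3 (edgeR adjusted p = 0.0226) or without siCGGBP1 replicate 1 (edgeR adjusted p = 0.043). With any of the other 4 libraries left out it did not, down to 1.08 (adjusted p = 1) without siCGGBP1 replicate 3. Pre-existing JUN RNA lay between 649 and 669.7 in siControl and between 326 and 739.7 in siCGGBP1. The ratio of JUN was 57%, 61.7% and 54.6% in siControl and 60.9%, 72% and 89% in siCGGBP1, and the lowest siCGGBP1 library lay under the highest siControl library. The groups were 57.8 ± 3.59% and 74 ± 14.2% (limma adjusted p = 0.793).

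FOSL1, which encodes FRA-1, an AP-1 subunit that accumulates under lasting ERK signalling, was lower in siCGGBP1 in total RNA. It had 686, 514 and 331 normalized reads in siControl and 214, 276 and 202 in siCGGBP1. Every siCGGBP1 library was below every siControl library, and the log2 fold change was -1.15 (standard error 0.38, edgeR adjusted p = 0.151), short of the threshold. Without the replicates 3 of both groups the adjusted p was 0.0397, at a log2 fold change of -1.28. The ratio of FOSL1 was 21.3%, 12.9% and 0% in siControl and 34.1%, 17.2% and 97.1% in siCGGBP1, so that the replicates 3 were the extremes of both groups. In siControl replicate 3 FOSL1 had 0 conversions in 328 reads. In siCGGBP1 replicate 3 it had 133 conversions in 246 reads, but 0 reads with at least 2 conversions. The siControl library with 200 µM 4sU also held 0 such reads of FOSL1, at a ratio of 63.4%. Its newly synthesized RNA was 146, 65.8 and 0 in siControl and 72.4, 47.6 and 196 in siCGGBP1, with a log2 fold change of 0.57 that turned to -0.81 without the replicates 3 (edgeR adjusted p = 1 in both). In pre-existing RNA, without a test, FOSL1 lay between 331 and 540.4 in siControl and between 5.92 and 228 in siCGGBP1.

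FOS, the classical partner of JUN, was close to the filter. It had 124, 202 and 39.3 normalized reads in siControl and 140.3, 297 and 220.4 in siCGGBP1, and the groups overlapped (log2 fold change 0.85, standard error 0.66, edgeR adjusted p = 0.574). The ratio of FOS was 76.8%, 67% and 0% in siControl and 67.6%, 54.7% and 93.1% in siCGGBP1. The value of 0 came from siControl replicate 3, with 0 conversions in 39 reads and an upper 95% limit of 14.1%. Without that library the difference in the mean ratio, 23.8 percentage points with all 6, was -0.14.

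JUNB, which pairs with FOS proteins and restrains JUN, had 377, 679 and 414 normalized reads in siControl and 501, 656 and 658 in siCGGBP1. These ranges overlapped, with a log2 fold change of 0.31 (standard error 0.32, edgeR adjusted p = 0.699). Its ratio was 64.5%, 57.5% and 72% in siControl and 54.8%, 44% and 60% in siCGGBP1, and newly synthesized JUNB RNA had a log2 fold change of 0.04 (standard error 0.72). Neither separated the groups.

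MYC, a basic helix-loop-helix factor that drives growth genes, had 669, 699.8 and 581 normalized reads in siControl and 353, 492 and 1267 in siCGGBP1. The siCGGBP1 libraries lay on both sides of the siControl range. The log2 fold change was 0.12 (standard error 0.41, edgeR adjusted p = 0.925), and it was -0.61 without siCGGBP1 replicate 3. The ratio of MYC was 49.4%, 59.1% and 96.8% in siControl and 67.4%, 70% and 28.1% in siCGGBP1, where the replicates 3 were again at the ends, the control high and the knockdown low. Newly synthesized MYC RNA ranged from 329.9 to 563 in siControl and from 238 to 356 in siCGGBP1, with a log2 fold change of -0.48 (standard error 0.66).

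ATF3, a stress-induced repressor of the same bZIP class as the AP-1 subunits, had few reads and passed the filter with exactly 3 libraries. It had 74.3, 101 and 204 normalized reads in siControl and 97.2, 103 and 46.7 in siCGGBP1, with a log2 fold change of -0.62 (standard error 0.73, edgeR adjusted p = 0.741). Its ratio ran from 7.37% to 84.5% in siControl and from 21.1% to 100% in siCGGBP1, a spread in which no difference was detectable at this depth.

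IER2, IER3 and DUSP1 encode no AP-1 subunits. IER3 is a small protein induced by growth signals and NF-κB that acts on ERK signalling and cell survival. It had 1602, 2251 and 1823 normalized reads in siControl and 1136, 1488 and 1293 in siCGGBP1, without overlap. Its log2 fold change was -0.53 (standard error 0.22, edgeR adjusted p = 0.249), which did not pass the test. The ratio of IER3 was 58%, 58.5% and 55.6% in siControl and 71.3%, 63% and 71.7% in siCGGBP1, and here all siCGGBP1 libraries were above all siControl libraries. The groups were 57.4 ± 1.57% and 68.6 ± 4.91%, a difference of 11.2 percentage points (limma adjusted p = 0.798, exact permutation p = 0.1). Newly synthesized IER3 RNA was 1087 ± 204 and 891 ± 71 and overlapped. Pre-existing IER3 RNA was 672, 934 and 809.6 in siControl and 327, 551 and 366 in siCGGBP1, without overlap and without a test.

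DUSP1, the MAP kinase phosphatase, had 890.3, 1359 and 945 normalized reads in siControl and 972, 1105 and 712 in siCGGBP1, which overlapped (log2 fold change -0.20, standard error 0.27, edgeR adjusted p = 0.784). Its ratio was the highest of the members in control cells, with 87.1%, 82.5% and 100% in siControl and 76.5%, 87.9% and 86.7% in siCGGBP1. IER2, a nuclear protein induced by growth factors, had 402, 279 and 448 normalized reads in siControl and 394, 441 and 353 in siCGGBP1 (log2 fold change 0.08, standard error 0.34, edgeR adjusted p = 0.945). The ratio of IER2 was 46.6%, 44.4% and 13.3% in siControl and 59.9%, 65.6% and 0% in siCGGBP1. The value of 0 was measured in siCGGBP1 replicate 3, with 1 conversion in 431 reads. Both low values were in replicates 3, whose part in the comparison was not tested beyond leaving them out.

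**Figure D3:**
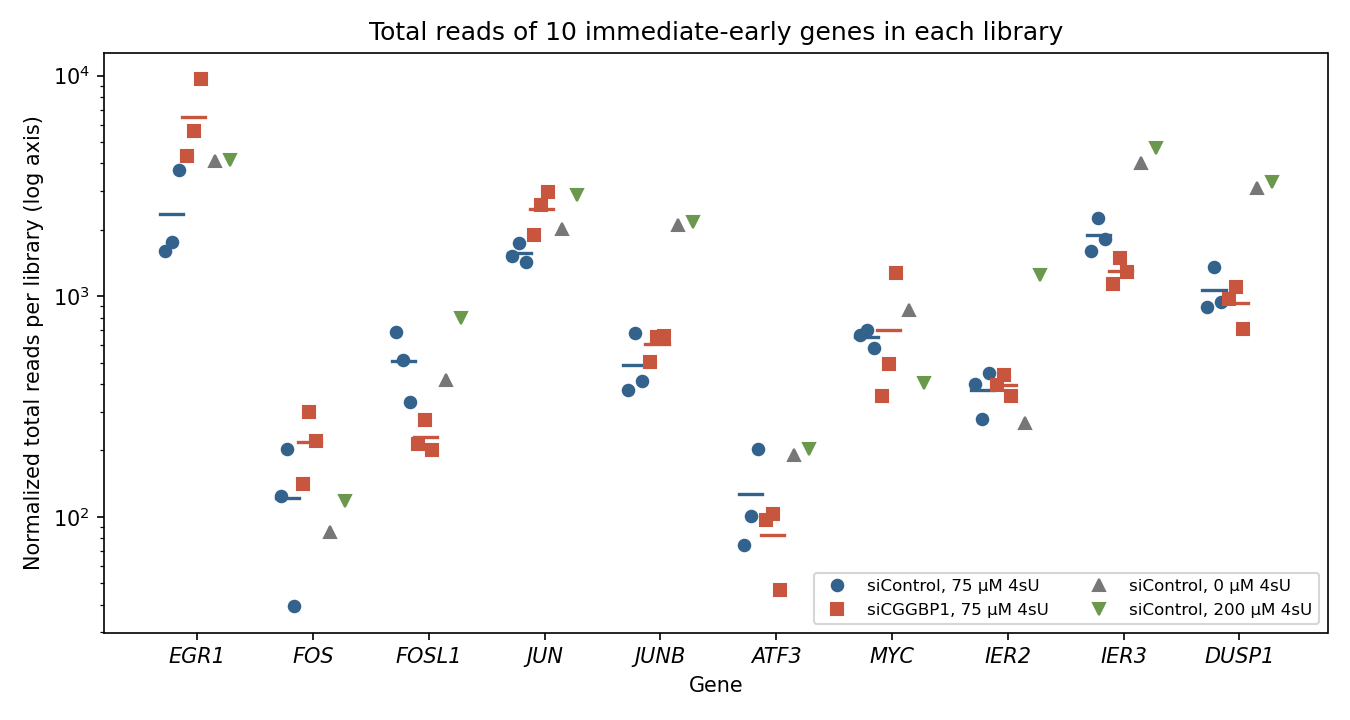
Normalized total reads on a log axis (vertical) are plotted for each member (horizontal), with a point for each of 8 libraries and a bar for the mean of 3. EGR1 and JUN lie higher in siCGGBP1 and FOSL1 and IER3 lower. For JUNB, IER3 and DUSP1 the single siControl libraries with 0 and 200 µM 4sU, drawn as triangles, lie above both groups.

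Across the members the ratio set them apart from most genes in the unperturbed control. The mean siControl ratio exceeded 50% in 7 of the 10 members, beside 68 of the tested genes (0.671%), and the median over the tested genes was 4.52%. The order of the means ran from DUSP1 (89.9 ± 9.06%) through MYC (68.4 ± 25%), JUNB (64.7 ± 7.28%), EGR1 (63 ± 9.17%), JUN (57.8 ± 3.59%), IER3 (57.4 ± 1.57%), ATF3 (51.6 ± 39.8%), FOS (47.9 ± 41.8%) and IER2 (34.8 ± 18.6%) to FOSL1 (11.4 ± 10.7%). Neighbours in this order differed by less than the larger of their SDs, except for IER2 and FOSL1, whose means were 23.4 percentage points apart. The mean of EGR1 was above that of 99.8% of the tested genes, that of IER2 above 97.6% and that of FOSL1 above 78.8%. A high share labelled in 60 min is a known property of short-lived mRNAs. No half-life was computed here, since the ratio also depends on whether synthesis was steady during the pulse.

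**Figure D4:**
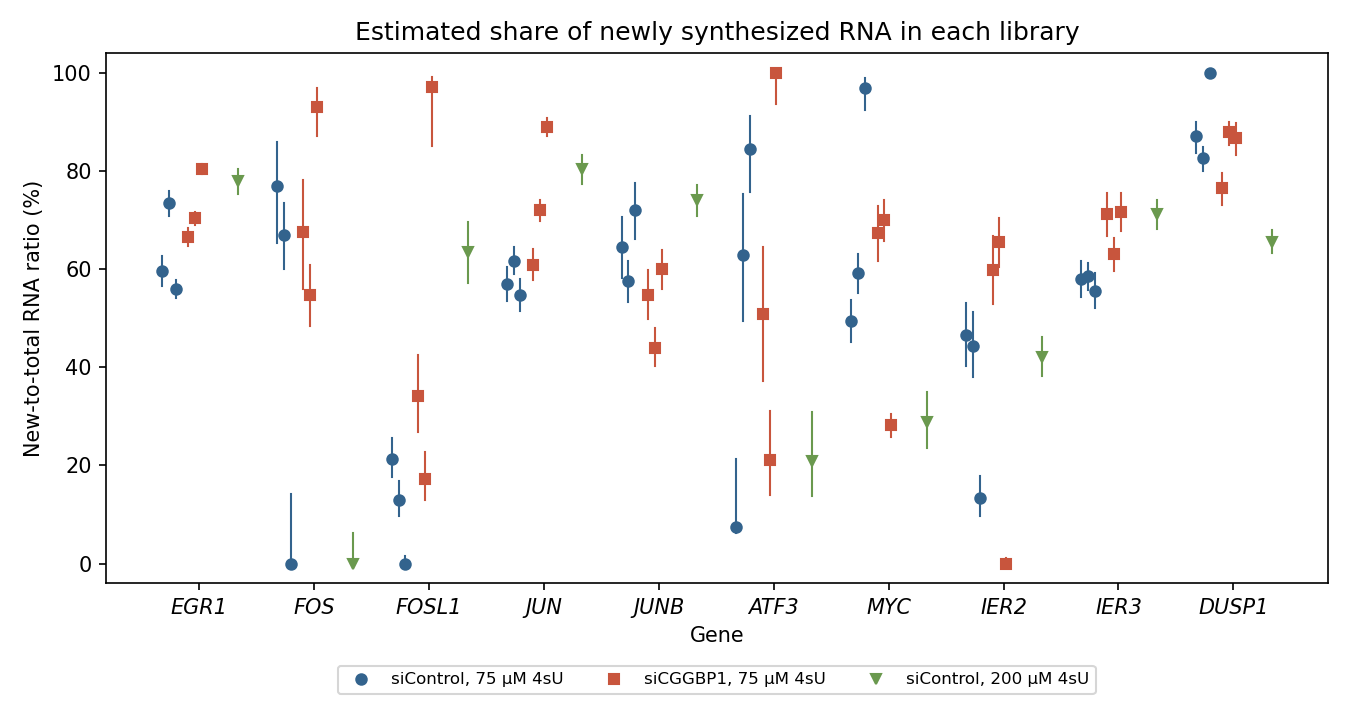
The new-to-total ratio in percent (vertical axis) is drawn for each member (horizontal axis) in each of 7 libraries with 4sU, with bars from the 5% to the 95% posterior limit. Most points of EGR1, JUN, JUNB, IER3 and DUSP1 lie above 50%. At 75 µM 4sU the isolated points at 0 for FOS and FOSL1 in siControl and for IER2 in siCGGBP1 belong to the replicates 3, and FOS is also at 0 at 200 µM.

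The single siControl libraries with 0 and 200 µM 4sU showed how far these genes moved between control libraries. Without 4sU, JUNB had 2109 normalized reads and DUSP1 3091, where the highest siControl library at 75 µM had 679 and 1359. At 200 µM they had 2168 and 3307. Both genes were thus over 2-fold above the range of the controls in both libraries, by 3.11- and 3.2-fold for JUNB and by 2.27- and 2.43-fold for DUSP1. IER3 had 4019.8 and 4715 reads, 1.79- and 2.09-fold above the highest siControl library, and IER2 267 and 1247. Together 2 of the 10 members were over 2-fold above the highest siControl library at 0 µM and 4 of 10 at 200 µM, beside 2.74% and 2.86% of the tested genes. FOS, with 85.4 and 118 reads, stayed within the range of the siControl libraries, and ATF3 (191 and 204) and MYC (870 and 402) reached at most 1.24-fold the highest of them. These libraries have no replicates, and the dose, the library and the handling cannot be told apart.

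In the library without 4sU the members held at most 5 reads with at least 2 conversions (JUNB), 3 for MYC, 1 for DUSP1 and 0 for the other members, so the background of this class was low. In the library labelled 200 µM the conversion rate was below that of all siControl libraries at 75 µM for 6 members (EGR1, JUN, JUNB, IER3, DUSP1, MYC), within their range for 3 (FOS, IER2, ATF3) and above it for 1, FOSL1, at 1.02 beside at most 0.776 per 100 covered T. For EGR1 it was 1.46 conversions per 100 covered T, under the 1.5 to 2.42 of the siControl libraries at 75 µM, and for DUSP1 1.42 against 2.68 to 4.04. The ratio at 200 µM was above the siControl mean at 75 µM for 6 members, with 77.9% for EGR1, 80.3% for JUN, 74% for JUNB, 71.2% for IER3, 42.1% for IER2 and 63.4% for FOSL1. It was below that mean for 4, with 65.6% for DUSP1, 28.8% for MYC, 21% for ATF3 and 0% for FOS.

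The wider immediate-early programme was read from gene lists chosen with earlier results of these data known. Of all 10138 genes tested in total RNA, edgeR called 0.444% higher and 0.957% lower, and 1661 had an unadjusted p under 0.05. Their median log2 fold change was -0.0031. The counts of the lists are to be read against these values. Of 26 other immediate-early transcription factors, 17 were tested in total RNA, where edgeR and DESeq2 called 0 and 2 had an unadjusted edgeR p under 0.05. Their median log2 fold change was -0.048, with 7 above 0. The 2 with the most reads, ID1 and ID3, inhibitors of basic helix-loop-helix factors, had log2 fold changes of 0.37 (adjusted p = 0.336) and -0.44 (adjusted p = 0.26). Of 34 other immediate-early genes, 25 were tested and 0 were called by edgeR or DESeq2, with 4 at an unadjusted edgeR p under 0.05, a median of -0.062 and 12 above 0. CCN1 and CCN2, matrix proteins that are targets of SRF and YAP, had values of -0.22 and -0.06.

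Among 16 feedback inhibitors of the ERK pathway 10 were tested and 1 was called by edgeR and by DESeq2, DUSP2, a nuclear phosphatase of ERK. Of all tested genes edgeR called 0.444% higher in total RNA. DUSP2 had 237, 201 and 228 normalized reads in siControl and 604, 499.7 and 1035 in siCGGBP1, without overlap (log2 fold change 1.68, standard error 0.35, edgeR adjusted p = 0.0325). But the single siControl libraries with 0 and 200 µM 4sU held 1130.2 and 989 reads of it, beside 1035 in the highest siCGGBP1 library. With them added to the controls the log2 fold change of DUSP2 was 0.36 (adjusted p = 0.815), and the call was also lost when any of 5 of the 6 libraries was left out. The most abundant genes of this list, NF1 and SPRED2, which turn RAS off, had log2 fold changes of -0.25 and -0.40 and were not called.

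The upstream route was measured by 21 genes from EGFR to the SRF cofactors, all tested, of which 0 were called by edgeR or DESeq2. Of these, 2 had an unadjusted edgeR p under 0.05 and 14 were above 0 (median 0.16). Such a p was found for 1661 of the 10138 genes tested in total RNA, against which the counts below are also to be read. NRAS, a RAS GTPase, had a value of -0.57 (adjusted p = 0.251). Of 14 tested partners and corepressors edgeR called 0, with 3 at an unadjusted p under 0.05. DESeq2 called 2, MNT and MXD4, which compete with MYC for MAX. Over all tested genes DESeq2 called more in total RNA than edgeR did, and the values of MNT and MXD4 are not given here. NAB1, a corepressor of EGR1, had 0.42 (edgeR adjusted p = 0.497) and MAX, the partner of MYC, 0.12 (adjusted p = 0.892). Of 15 tested genes of AU-rich mRNA decay 0 were called by edgeR or DESeq2, 3 had an unadjusted edgeR p under 0.05 and 9 were below 0 (median -0.12). ZFP36L1, which recruits deadenylases to AU-rich elements, had 0.08 (adjusted p = 0.894), and HNRNPD, which encodes AUF1, -0.36 (adjusted p = 0.29).

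The cytoskeletal targets of SRF and its cofactors of the MRTF family were tested for all 12 genes. In total RNA edgeR called 0.444% of all tested genes higher. Of the 12 genes, 1 was called, by edgeR and by DESeq2. This was ACTA2, smooth muscle actin, which had 77.8, 138 and 106 normalized reads in siControl and 726, 651 and 475 in siCGGBP1, without overlap. Its log2 fold change was 2.52 (standard error 0.39, edgeR adjusted p = 0.00776). The libraries with 0 and 200 µM 4sU held 507 and 271 reads of ACTA2, and with them among the controls it was 1.49 (adjusted p = 0.145). Without siCGGBP1 replicate 1 the adjusted p was 0.0722. The 2 most abundant genes of this list, FLNA and TPM2, had log2 fold changes of 0.0035 and -0.58 and were not called. In newly synthesized RNA edgeR called 0 of the 114 tested genes of these 7 lists, with 7 at an unadjusted p under 0.05 beside 319 of the 10138 genes tested, and DESeq2 called 1, ACTA2. In reads with at least 2 conversions edgeR and DESeq2 called 0 of 80, with 1 at an unadjusted edgeR p under 0.05 beside 73 of 3136 genes. For the ratio limma called 0 of 114, with 4 at an unadjusted p under 0.05 beside 224 of the genes tested.

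The genes whose total RNA followed EGR1 most closely over the 6 libraries were TMED10 (Pearson r = 0.997), ATPIF1 (0.989), SORT1 (0.989), CCDC74B (0.986) and SNRPN (0.985). They were the 5 best among 10138 genes over 6 points that share libraries and depth, so these values are a description. Their own log2 fold changes ranged from 0.44 (TMED10) to 1.13 (SORT1), and none was called (edgeR adjusted p from 0.11 to 0.36). No other immediate-early gene was among them.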

How the data were processed

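SLAM-Seq was carried out in U-2OS Tet-ON cells, with 3 siControl and 3 siCGGBP1 libraries at 75 µM 4sU and single siControl libraries at 0 and 200 µM. Per the study's methods and the submitters' processing notes, ribosomal reads were removed with Bowtie2 2.3.0, reads were mapped to the human genome (GRCh38) with STAR 2.5.3a, and GRAND-SLAM and grandR were used downstream. The expected counts of reads, conversions, covered T and reads with at least 2 conversions (named min2 and read so from that name) were deposited by the authors without normalization, in fractions where reads matched several genes. The new-to-total ratios were deposited by the authors as a fraction, as the mode and the mean of the posterior with its 5% and 95% limits. No molecular identifiers were used, so reads are not independent molecules.

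Counts were rounded and fitted with edgeR 4.0.16 in R 4.3.3 (quasi-likelihood F test, TMM factors of total reads, Benjamini-Hochberg over all tested genes), and ratios with limma 3.58.1. Standard errors were derived from the log2 fold change and F. In newly synthesized RNA and in reads with at least 2 conversions, edgeR took the spread almost wholly from all genes. The p-values of these fits therefore do not measure the spread of the single gene between its libraries. The common biological coefficient of variation was 0.399 in total RNA, 1.78 in newly synthesized RNA and 1.49 in reads with at least 2 conversions. The edgeR fits and the limma fit of the ratio were tested on simulated data. The simulated counts had less spread between libraries than newly synthesized RNA and reads with at least 2 conversions showed. The test on simulated data therefore does not cover the spread found in those 2 classes, and DESeq2 was not tested in this way. The members and gene lists were chosen with earlier results of these data known. Named were the 10 members, CGGBP1, list genes called in any fit, the 2 most read genes of each list and the 5 genes most correlated with EGR1. The result of 1 gene under this rule is not reported here. MNT, MXD4 and the markers named singly were chosen after their values were seen. Of the genes in the lists, KLF4, CXCL1, CXCL2, BATF and AUF1 (as a symbol) were not analysed here. Alternatives were DESeq2 1.42.0, other normalizations, filters, scales and thresholds, a replicate block and leaving out libraries. Added after seeing the data were the 5 siControl libraries, leaving out both replicates 3, and a robust prior in edgeR. Promoter windows came from RefSeq, and gene models from GENCODE 44.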

Additional observations from a re-analysis of the deposited data

Results flagged for a closer look

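The single siControl libraries with 0 and 200 µM 4sU did not enter the comparisons, and some of the genes named here were over 2-fold above the highest siControl library at 75 µM in them. Of the members, JUNB was 3.11-fold above it without 4sU and 3.2-fold at 200 µM, and DUSP1 2.27-fold and 2.43-fold. IER2 (2.78-fold) and IER3 (2.09-fold) were above it at 200 µM. Of the listed genes, DUSP2 was 4.77-fold above it without 4sU and 4.17-fold at 200 µM, and ACTA2 3.67-fold without 4sU. Both single libraries shared the pattern of JUNB, DUSP1 and DUSP2. With 1 library each there is no test, and what set these libraries apart was not tested.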

How the results depend on the processing

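Other settings are compared here with edgeR at an adjusted p under 0.05, where in total RNA 45 genes were called higher and 97 lower and 0 members were called, in newly synthesized RNA 3, 2 and 1, and in reads with at least 2 conversions 1, 2 and 1. The cause of a change was not tested except where the setting itself states it. DESeq2 called 166 genes higher and 205 lower in total RNA and 11 and 19 in newly synthesized RNA, 4 lower in reads with at least 2 conversions, and 0 members in either labelled class (EGR1 1.74 and 1.89). Without a filter the calls in total RNA were 121 and 206, with 1 member (EGR1, 1.44), and at an adjusted p under 0.1 they were 117 and 169, with 1 member (EGR1, 1.46), and 3 genes were higher in reads with at least 2 conversions. With 5 siControl libraries, 147 were lower. Without the replicates 3 of both groups, a choice made after seeing the data, total RNA gave 139 and 181 with 2 members (EGR1, 1.57, and FOSL1), newly synthesized RNA 7 lower, and reads with at least 2 conversions 0 higher, 0 lower and 0 members (EGR1 1.77). In newly synthesized RNA, conversion counts gave 11 and 7 with 2 members (EGR1 and JUN), TMM on new reads 1 higher, the posterior mean ratio 4 lower, and limma with 1 or 10 added to the reads 0, 0 and 0 members (EGR1 1.69 with either). The replicate numbers of the groups share no stated origin. Same-numbered libraries deviated together with correlations of 0.109, 0.182 and 0.0886, and each library correlated best with its own number. With the replicate block, EGR1 was called in total RNA (1.49, edgeR adjusted p = 0.00474), as the 1 member, and the calls were 1 higher and 1 lower in newly synthesized RNA and 0 lower in reads with at least 2 conversions. Leaving out 1 library at a time gave 15 to 48 genes higher, 33 to 100 lower and 0 to 1 members in total RNA (EGR1 1.08 to 1.95), 1 to 3 and 1 to 4 in newly synthesized RNA, and 0 to 4, 1 to 2 and 0 to 2 members in reads with at least 2 conversions (EGR1 1.35 to 2.32). The counts in total RNA were lowest without siCGGBP1 replicate 1, and the counts of genes higher and of members in reads with at least 2 conversions without siCGGBP1 replicate 3.

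Directions of log2 fold changes that turned belonged to genes that were not called. In total RNA they were JUNB (-0.92), IER2 (-0.42), CCN2 (0.10), MAX (-0.022), ZFP36L1 (-0.45) and FLNA (-0.018) with 5 siControl libraries. They were ATF3 (0.19), MYC (-0.69) and FLNA (-0.065) without both replicates 3, MYC (-0.11) with the block, and FLNA with DESeq2 (-0.00082), its size factors (-0.00081), no filter (-0.011) and filterByExpr (-0.0077). In newly synthesized RNA they were FOSL1 (-0.81), JUNB (-0.16) and ATF3 (0.027) without both replicates 3, JUNB (-0.028) with TMM on new reads, and IER2 with the block (-0.76) and limma with 1 (-1.46) or 10 (-0.44) added. In reads with at least 2 conversions they were FOS (-0.24), JUNB (0.14) and DUSP1 (0.14) without both replicates 3 and JUNB (0.022) with the block. On the log2 odds scale the ratio of IER2 differed by -1.13. With 1 library left out, ranges that crossed 0 were in total RNA IER2 -0.10 to 0.22, DUSP1 -0.34 to 0.018, MYC -0.61 to 0.44, CCN2 -0.18 to 0.085, MAX -0.16 to 0.37, ZFP36L1 -0.081 to 0.27 and FLNA -0.14 to 0.26. In newly synthesized RNA they were FOSL1 -0.23 to 1.67, JUNB -0.13 to 0.24, IER2 -0.072 to 1.10 and ATF3 -1.58 to 0.17, and in reads with at least 2 conversions FOSL1 -0.14 to 1.52, JUNB -0.23 to 0.17, IER3 -0.38 to 0.055 and DUSP1 -0.57 to 0.22. In percentage points of the ratio they were FOS -0.14 to 38.3, IER2 -4.82 to 27.9, ATF3 -16.4 to 23.8 and MYC -22.8 to 0.91. Few reads, as for FOS and ATF3, and a ratio at 0 in single libraries limit these values.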
